A study of Homo sapiens with 7 samples.

Results

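The chemokine and EGF ligand genes of 4q13 form a run of 10 genes on chromosome 4, selected on lower counts in early stage dasatinib resistant K562 lines: *RASSF6*, *CXCL8* (IL8 in older tables), *CXCL6*, *CXCL1*, *PF4*, *PPBP*, *CXCL3*, *CXCL2*, *EREG* and *AREG*. They were taken by name from the 25702 gene IDs of the count table. They were chosen by their values in the early stage against the control lines, so that comparison is given here as a description, without a test. At least 1 read was counted on 9 of the 10 genes, 8 had more than 3 counts in some line, 6 reached 1 CPM (a gene's counts scaled by the total counts of its library) in at least 2 libraries, and only *EREG* reached 10 CPM in 2 libraries.

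K562 is an established BCR::ABL1-positive chronic myeloid leukemia cell line. Dasatinib inhibits the BCR::ABL1 kinase, and the dasatinib resistant (DasR) lines were grown from K562 under slowly rising doses. The controls were the 2 lines named drug naive and DMSO vehicle, the early stage group the 3 DasR lines kept in 10, 15 and 25 nM dasatinib, and the late stage group the 2 DasR lines kept in 50 and 200 nM. Each line was sequenced as 1 library, with 20059656 to 27844799 counted reads. All DasR lines came from 1 dose escalation of 1 cell line, the study drew the stage groups from the clustering of these same libraries, and dose rose with time in culture, so that stage, dose and time cannot be told apart. The adjusted p-values weigh a difference between groups against the spread of lines within groups, taken over the 3 groups together. Lines of a group differed in dose or in vehicle, so that this is not the spread of replicates of a condition. In bulk RNA, fewer cells with a transcript and less transcript per cell cannot be told apart.

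CXCL8 and CXCL1, CXCL2, CXCL3 and CXCL6 are chemokines that attract neutrophils through the receptors CXCR1 and CXCR2, and their genes are textbook targets of NF-kB. PF4 and PPBP are chemokines stored in platelet granules. Epiregulin (*EREG*) and amphiregulin (*AREG*) are made as membrane precursors, released by shedding proteases such as ADAM17, and bind EGFR, epiregulin also ERBB4. RASSF6 belongs to a family of scaffold proteins that bind the Hippo kinases.

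The promoters of these genes fell into groups by their letters. The stretches shown here were read from GRCh37, the build that hg19 names, over 150 bases before to 10 bases within each gene's canonical transcript start, and they are printed because the members' shared and distinct sequences can be seen in them. Capitals mark the NF-kB letters GGAATTTCC, the AP-1 letters TGANTCA and the CRE letters TGACGTCA, searched on either strand, and no marked match overlapped another.
CXCL8, chr4:74606136-74606295, plus strand: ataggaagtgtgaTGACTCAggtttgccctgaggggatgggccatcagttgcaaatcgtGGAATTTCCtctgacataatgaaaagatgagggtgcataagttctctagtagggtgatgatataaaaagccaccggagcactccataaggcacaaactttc
CXCL1, chr4:74734960-74735119, plus strand: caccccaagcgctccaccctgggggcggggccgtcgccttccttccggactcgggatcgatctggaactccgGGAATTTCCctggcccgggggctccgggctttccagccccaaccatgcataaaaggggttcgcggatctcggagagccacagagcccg
CXCL2, chr4:74964903-74965062, minus strand: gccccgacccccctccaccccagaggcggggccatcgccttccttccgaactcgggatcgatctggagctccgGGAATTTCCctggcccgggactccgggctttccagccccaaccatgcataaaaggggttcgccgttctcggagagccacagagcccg
CXCL3, chr4:74904397-74904556, minus strand: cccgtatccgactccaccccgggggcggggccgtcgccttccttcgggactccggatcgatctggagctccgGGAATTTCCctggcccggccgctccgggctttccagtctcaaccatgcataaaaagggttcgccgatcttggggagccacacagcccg
CXCL6, chr4:74702245-74702404, plus strand: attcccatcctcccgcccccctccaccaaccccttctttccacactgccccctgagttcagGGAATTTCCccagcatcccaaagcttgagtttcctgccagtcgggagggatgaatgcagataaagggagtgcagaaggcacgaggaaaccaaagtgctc
EREG, chr4:75230712-75230871, plus strand: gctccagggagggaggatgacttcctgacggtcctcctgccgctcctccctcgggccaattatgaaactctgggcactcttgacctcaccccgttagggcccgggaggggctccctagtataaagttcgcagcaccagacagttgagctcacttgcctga
AREG, chr4:75310703-75310862, plus strand: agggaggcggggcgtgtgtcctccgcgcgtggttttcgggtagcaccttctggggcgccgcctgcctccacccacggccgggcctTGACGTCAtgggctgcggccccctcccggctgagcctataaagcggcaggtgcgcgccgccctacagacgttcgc

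GGAATTTCC was found in 5 of the 10 members, *CXCL8*, *CXCL1*, *CXCL2*, *CXCL3* and *CXCL6*, over 250 bases before to 50 bases within the start, against 0.372% of 19874 protein-coding promoters of that length. It lay between 69 and 91 bases before the start in each of them. Only these exact letters were searched, so that other forms of an NF-kB site were counted neither in the members nor in the 0.372%. These chemokine genes are textbook NF-kB targets, so that nothing is read from the count of 5 beside that share. *CXCL1*, *CXCL2* and *CXCL3* are close copies, with 17 to 22 single-base edits separating any pair of their stretches, so that their matches are not independent, and *CXCL6* differed from them by at least 76 edits. The AP-1 letters occurred only in *CXCL8* among the members (5.4% of promoters) and the CRE letters only in *AREG* (2.68%). *EREG*, *RASSF6*, *PF4* and *PPBP* held none of the 3 sets of letters, which does not show that they lack other forms of these sites. The TATA letters TATAAA were found in 4 members, *CXCL8*, *PPBP*, *EREG* and *AREG*, against 9.63% of promoters. These matches describe the sequence and say nothing of what bound there in these lines.

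Summed, the 10 genes made up 55.4 CPM in the drug naive line and 41.4 CPM in the DMSO line. The sum was 5.57 CPM at 10 nM, 2.19 CPM at 15 nM and 5.98 CPM at 25 nM. It was 21.4 CPM at 50 nM and 36.2 CPM at 200 nM, above every early stage line and below both controls. Among the 6 genes past 1 CPM, all 3 early stage lines lay below both controls for 5, and the early stage lines overlapped the controls for *RASSF6*. Of all 14899 genes past 1 CPM, 33.2% had every early stage line below both controls, and the members' count was fixed by how they were chosen.

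**Figure D1:**
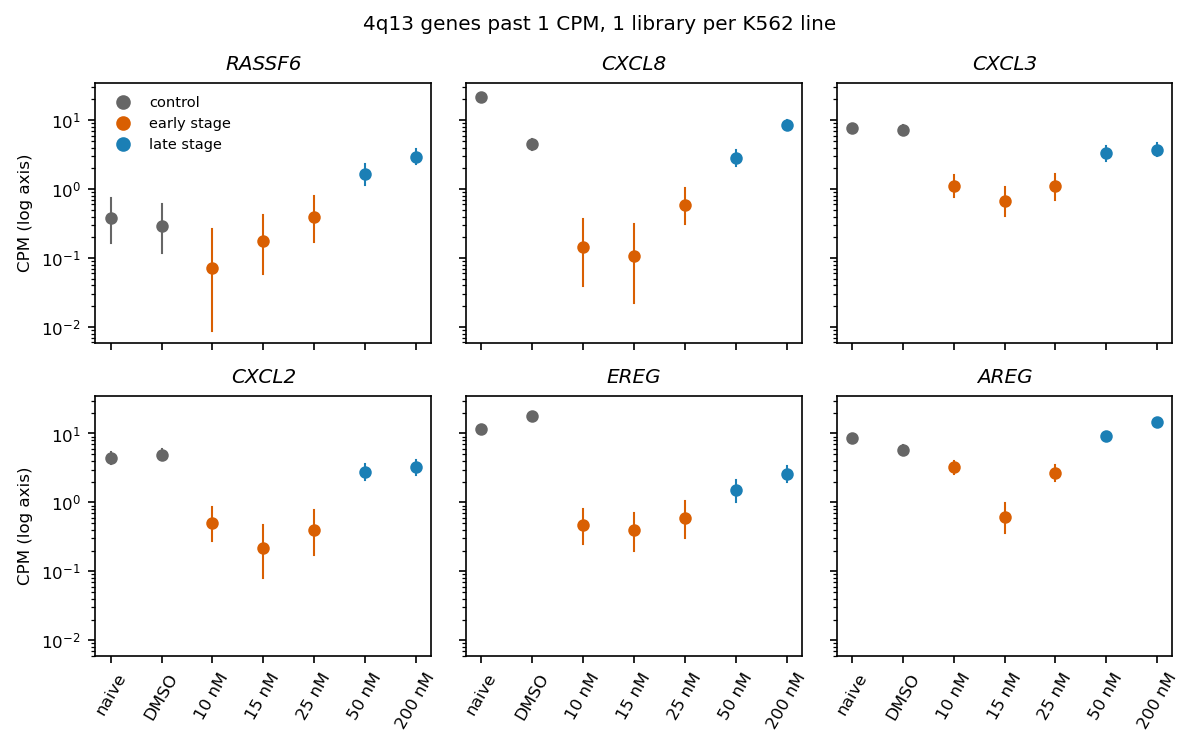
CPM (log axis) of the 6 members past 1 CPM in each of the 7 lines, 1 point per library, with vertical bars for 95% Poisson intervals of the count, which cover counting error only. CXCL8, CXCL2, CXCL3 and EREG are lowest in the orange early stage lines, AREG and RASSF6 are highest in the blue late stage lines, and the 2 grey controls stand apart for CXCL8.

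*CXCL8*, the neutrophil chemokine interleukin 8 (gene ID 3576, chr4:74606236-74609433, plus strand), was counted 455 times in the drug naive line and 108 times in the DMSO line, or 21.7 and 4.49 CPM. It was at 0.144 CPM at 10 nM, 0.108 CPM at 15 nM and 0.598 CPM at 25 nM, from 4, 3 and 12 counts, and the 95% Poisson interval of the 15 nM value ran from 0.0222 to 0.315 CPM. It was at 2.83 CPM at 50 nM and 8.66 CPM at 200 nM. The early stage lines were lowest without overlap, and the late stage lines overlapped the controls, with 50 nM below the DMSO line and 200 nM above it. The mean of the controls was 46.2-fold that of the early stage lines, with a fitted log2 difference of -5.65 (SE 0.95), which was -4.04 without the drug naive line and -6.67 without the 25 nM line. Of the members past 1 CPM it had the widest gap between controls: it was 4.82-fold higher in the drug naive than in the DMSO line, a difference of over 2-fold that 3.17% of genes showed in either direction. It was also 3.06-fold higher at 200 than at 50 nM, where 7.66% of genes differed by over 2-fold.

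The related chemokines *CXCL2* (gene ID 2920, chr4:74962757-74964913, minus strand) and *CXCL3* (gene ID 2921, chr4:74902306-74904524, minus strand) had nearly equal controls. *CXCL2* was at 4.47 CPM in the drug naive and 4.95 CPM in the DMSO line, at 0.503, 0.215 and 0.399 CPM at 10, 15 and 25 nM, and at 2.78 and 3.24 CPM at 50 and 200 nM. *CXCL3* was at 7.66 and 7.28 CPM in the same controls, then 1.11, 0.682 and 1.1 CPM at 10, 15 and 25 nM, and at 3.31 and 3.75 CPM in the late stage lines. The 3 groups were separate for both genes, with the late stage lines between the others. The controls were 12.6-fold above the early stage lines for *CXCL2* (log2 difference -3.66, SE 0.35) and 7.75-fold for *CXCL3* (log2 difference -2.97, SE 0.27). Part of their exons can be read from each other: 8.56% of the 75-base stretches of *CXCL2* exons and 4.85% of those of *CXCL3* occurred elsewhere on chromosome 4.

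The other chemokines of the run were near the limit of detection. *CXCL1* (gene ID 2919, chr4:74735110-74737025, plus strand), a growth-regulated chemokine of the same receptor, had 14 and 7 counts in the controls, 1, 0 and 4 in the early stage lines and 2 and 5 in the late stage lines. The platelet genes *PPBP* (gene ID 5473, chr4:74852156-74853907, minus strand) and *PF4* (gene ID 5196, chr4:74846528-74847744, minus strand) had at most 6 and 1 counts in a line, and *CXCL6* (gene ID 6372, chr4:74702357-74714781, plus strand) had 0 counts in every line. A count of 0 allows up to 3 counts, which was 0.108 to 0.150 CPM in these libraries, so that a difference for *CXCL6* or *PF4* was not detectable at this depth. *PPBP* had 6 and 0 counts in the controls, 0 in each early stage line and 3 and 2 in the late stage lines. Each stage overlapped the controls. Both late stage lines lay above every early stage line, but with so few counts nothing is read from that order.

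Epiregulin, an EGF family ligand, was the most abundant member by CPM in the DMSO line. *EREG* (gene ID 2069, chr4:75230862-75254466, plus strand) was at 11.8 CPM in the drug naive and 18.2 CPM in the DMSO line, from 247 and 437 counts. It was at 0.467, 0.395 and 0.598 CPM at 10, 15 and 25 nM, from 13, 11 and 12 counts, and at 1.49 and 2.59 CPM at 50 and 200 nM. The 3 groups did not overlap, and the late stage lines lay nearer to the early stage lines than to the controls. The controls were 30.7-fold above the early stage lines (log2 difference -4.95, SE 0.34) and 7.33-fold above the late stage lines.

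Amphiregulin, encoded by the next member along the chromosome, had another order. *AREG* (gene ID 374, chr4:75310853-75320722, plus strand) was at 8.47 CPM in the drug naive and 5.82 CPM in the DMSO line. It was at 3.24, 0.611 and 2.69 CPM at 10, 15 and 25 nM and at 9.12 and 14.6 CPM at 50 and 200 nM. The early stage lines lay below both controls and the late stage lines above both, an arrangement that 1.75% of genes past 1 CPM had. Its early stage part was fixed by how the members were chosen, so that nothing is read from how rare that arrangement was. The controls were 3.28-fold above the early stage lines (log2 difference -1.73, SE 0.58), and the 15 nM line was the lowest. For *AREG*, 97.3% of the 75-base exon stretches have an identical copy at chr4:75480629-75490481, so that reads of the gene and of this copy cannot be told apart, and its values depend on how the authors counted reads with more than 1 match, which is not given in the sources used here.

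*RASSF6*, the scaffold gene at the start of the run (gene ID 166824, chr4:74437267-74486348, minus strand), was at 0.381 and 0.291 CPM in the controls, from 8 and 7 counts. It had 2, 5 and 8 counts at 10, 15 and 25 nM, or 0.0719, 0.180 and 0.399 CPM. It had 34 and 64 counts at 50 and 200 nM, or 1.63 and 2.96 CPM. Its early stage lines reached from below both controls to above both, and its log2 difference of -0.71 (SE 0.70) was about as large as its error. The name of the run as a set of lower genes was thus not borne out for *RASSF6*, which was highest in the late stage lines.

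The late stage against the control lines asked how far these genes were from the controls at the highest doses. The late stage lines were not used to choose the members, but the control lines were, so that these p-values are not fully independent of the choice. With edgeR's quasi-likelihood test and Benjamini-Hochberg adjustment over 14899 genes, *EREG* fell by 2.85 on the log2 scale (SE 0.35, adjusted p = 0.00237), and it was the only member past the threshold of 0.005. That call needed all 7 libraries but for the 10 and 15 nM lines: the adjusted p from edgeR was 0.0138 without the drug naive line, 0.0155 without the DMSO line, 0.00644 without the 25 nM line, 0.00892 without the 50 nM line and 0.00573 without the 200 nM line. Across all genes past 1 CPM, 3.02% were called lower and 2.5% higher.

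The others tested did not pass. *CXCL3* differed by -1.07 (SE 0.29, edgeR adjusted p = 0.0299), *CXCL2* by -0.63 (SE 0.34, adjusted p = 0.202) and *CXCL8* by -1.19 (SE 0.85, adjusted p = 0.325) on the log2 scale, the last turning to 0.40 without the drug naive line. *AREG* differed by 0.74 (SE 0.62, edgeR adjusted p = 0.403). *RASSF6* differed by 2.77 (SE 0.64), but it reached 1 CPM only in the late stage lines and so entered the fit only through the group where it was high, and its difference is given with no test. By lines, both late stage values lay below both controls for *CXCL2*, *CXCL3* and *EREG*, above both for *RASSF6* and *AREG*, and overlapped them for *CXCL8*. Among all genes past 1 CPM, 35.1% had both late stage lines below both controls and 30.6% had both above. The 6 members had every late stage line above every early stage line, an order shown by 23.3% of genes, and since the early stage lines chose the members nothing is read from that count. The fitted log2 differences of late against early stage ran from 1.90 (SE 0.27) for *CXCL3* to 4.46 (SE 0.95) for *CXCL8*.

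Per kilobase of exon, the control means of 5 members ran from 2.62 to 5.05 CPM per kilobase, while *CXCL1* was at 0.352, *PPBP* at 0.109, *RASSF6* at 0.0507 and *PF4* at 0.0456 CPM per kilobase and *CXCL6* had 0 counts. *CXCL8* stood at 5.05 CPM per kilobase, *AREG* at 4.35, *CXCL2* and *CXCL3* both at 3.37 and *EREG* at 2.62, so that the mean of *EREG* ranked lower per length than by CPM. The control lines of *CXCL8* lay at 1.74 and 8.37 CPM per kilobase and overlapped those of the other 4, so that its place among them could not be set, nor could *CXCL2* and *CXCL3* be ordered. In the early stage lines the order of the means was *AREG* at 1.33, *CXCL3* at 0.435, *CXCL2* at 0.267, *CXCL8* at 0.109, *EREG* at 0.0852 and *RASSF6* at 0.0327 CPM per kilobase, and among neighbours in that order only the lines of *EREG* and *RASSF6* did not overlap. In the late stage lines the mean of *AREG* at 7.24 led, before *CXCL8* at 2.22, *CXCL2* at 2.16, *CXCL3* at 1.59, *EREG* at 0.357 and *RASSF6* at 0.347 CPM per kilobase. There the lines of *AREG* lay above those of the other 5, while those of *CXCL8* overlapped *CXCL2* and *CXCL3*, and those of *EREG* overlapped *RASSF6*. Over the 7 lines, the correlation of log2 CPM between members was highest for *CXCL2* and *CXCL3* (r = 0.982) and lowest for *RASSF6* and *EREG* (r = 0.204), and *EREG* and *AREG* were at r = 0.610. These correlations are over 7 libraries that the same groups divide, and they are descriptions only.

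The listed neighbours of the run did not share a single pattern. They lie on both sides of it on chromosome 4, and past *AREG* the list reaches beyond 4q13. Of 35 neighbours listed, 34 were matched to an ID and 15 were tested at 10 CPM. Of these, 4 fell in the early stage lines against 10.1% of all 10452 genes, and none rose against 7.92%. All 4 lie past *AREG*, outside the run. The tested genes *ADAMTS3*, *COX18* and *ANKRD17*, before the run, and *MTHFD2L*, inside it, were not called in either stage. In the late stage lines 1 fell, *CXCL11*, against 4.56% of all genes, and none rose against 3.42%. The median log2 difference of the 15 was -0.37 in the early and -0.15 in the late stage lines, where the median of all genes was 0.0031 and -0.0036. The count of 4 was 1 without the drug naive, DMSO, 15 nM or 25 nM line, and the late stage count of 1 was 0 without either control. Of the 4, *CXCL11* and *CCNG2* passed 10 CPM only through the controls, where they were high, so that nothing is read from their part in these counts.

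Within the run itself lie 4 listed genes that were not members. *MTHFD2L*, a mitochondrial folate enzyme between *CXCL2* and *EREG*, was at 8.47 and 11.7 CPM in the controls and between 9.77 and 11.5 CPM in all DasR lines (log2 difference 0.05 in the early stage lines, edgeR adjusted p = 0.843), and the groups overlapped. *EPGN*, the EGF family ligand next to *EREG*, was at 1.29 and 1.33 CPM in the controls, then 1.55, 0.682 and 1.05 CPM at 10, 15 and 25 nM and 2.50 and 1.85 CPM in the late stage lines. *CXCL5* had at most 0.249 CPM in a line, and *PF4V1*, a close relative of *PF4*, was at 3 counts or fewer in every line. Beyond *AREG*, the EGF family gene *BTC* was likewise at 3 counts or fewer, and *PARM1* was at or under 0.144 CPM. Further along 4q, *CXCL11*, the interferon-induced ligand of CXCR3, was at 13.2 and 13.7 CPM in the controls and at 3 counts or fewer in every DasR line, which made it at least 111-fold lower in the early and at least 95.3-fold lower in the late stage lines against a floor of 3 counts per library. It passed the filter only through the controls, so that its levels are given with no test.

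The remaining falls in the early stage lines were those of *USO1*, *SCARB2* and *CCNG2*, a cyclin gene that differed by -1.20 on the log2 scale and was not called at 1 CPM, a filter that all its lines passed (edgeR adjusted p = 0.0051). At 1 CPM, 22 neighbours were tested and 5 fell in the early stage lines (*CXCL11*, *ART3*, *FAM47E*, *USO1* and *SCARB2*), where 7.95% of all genes were called lower and 6.32% higher, and 3 fell in the late stage lines (*CXCL11*, *ART3* and *FAM47E*), where 3.02% were called lower and 2.5% higher. These 3 genes passed 1 CPM only through the controls, where they were high, so that nothing is read from their calls in either stage. The 5 genes called in the early stage lines at 1 CPM all lie past *AREG*, outside the run. *USO1*, *SCARB2*, *ART3*, *FAM47E*, *ALB* and *AFP* were picked after their values were seen. On the other side of *RASSF6* lie *ALB* and *AFP*, which encode albumin and alpha-fetoprotein. *AFP* was at 0.286 and 0.582 CPM in the controls, 0.252 and 0.0718 CPM at 10 and 15 nM, 3.69 CPM at 25 nM, and 8.02 and 15.8 CPM at 50 and 200 nM. *ALB* was at 3.04 CPM at 25 nM and 6.10 and 5.98 CPM at 50 and 200 nM, and at 0.144 CPM or less in the other lines. Both were highest in the 25, 50 and 200 nM lines, which alone brought them past 1 CPM, so that their levels are given with no test. *AFM*, the neighbour of *RASSF6*, had 6 and 19 counts at 50 and 200 nM and 2 or fewer in every other line. *ANKRD17*, an abundant ankyrin repeat gene beyond them, was between 315 and 441 CPM in all lines (log2 difference 0.22 in the early stage lines, edgeR adjusted p = 0.119).

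**Figure D2:**
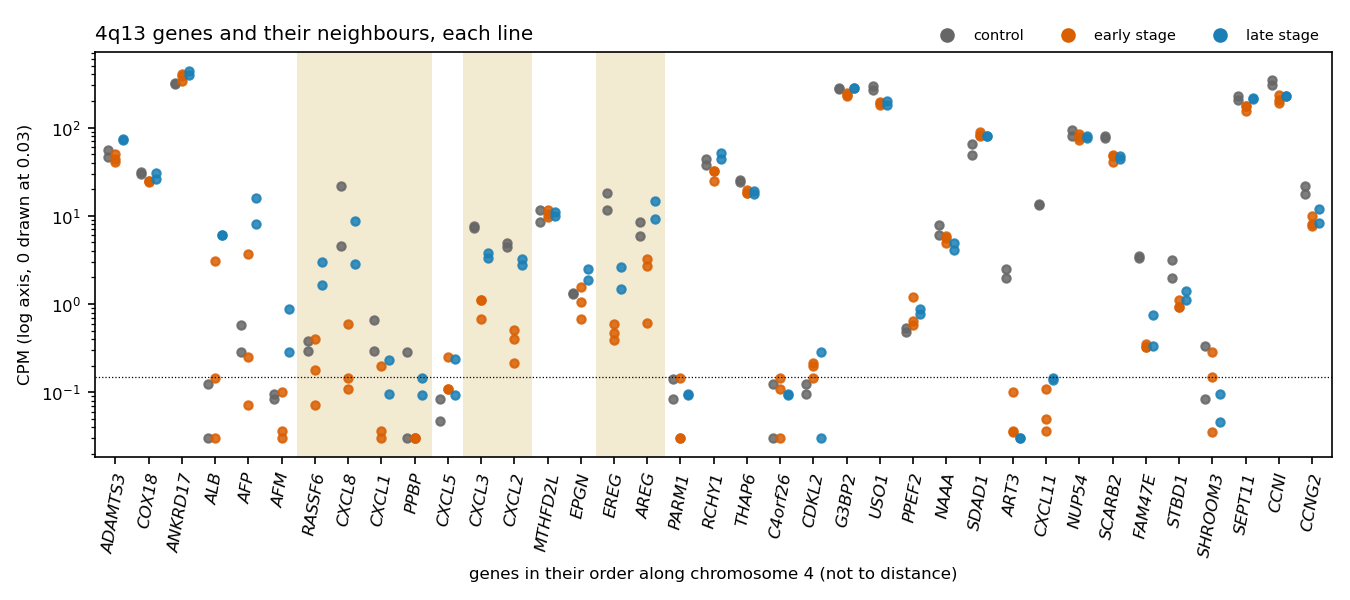
CPM (log axis) of the members and their listed neighbours, which reach beyond 4q13, with more than 3 counts in some line, in their order along chromosome 4 and not to distance, 1 point per line, with members shaded and a dotted line at 0.150 CPM, the highest of the libraries' 3-count limits. CXCL8, CXCL3, CXCL2, EREG and AREG show the orange early stage points at the bottom, MTHFD2L inside the run shows all 7 lines together between 8.47 and 11.7 CPM, and CXCL11 is near 13 CPM in the controls only.

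The receptors of these ligands were mostly at the limit of detection. *CXCR1*, *EGFR* and *ERBB4* had 3 counts or fewer in every line, and *CXCR2* reached at most 0.288 CPM. Of 16 chemokine and EGF family receptors, 2 were tested at 10 CPM. *ERBB2*, the shared partner receptor of the EGF family, was at 16.3 and 19.5 CPM in the controls, then 9.57, 11.7 and 8.87 CPM at 10, 15 and 25 nM and 6.58 and 5.79 CPM in the late stage lines. The 3 groups were separate, and *ERBB2* fell in the late stage lines (log2 difference -1.55, edgeR adjusted p = 0.0026), where 4.56% of all genes did. The call was made in 2 of 8 fits, the 8 being the fit of all libraries and those without each library in turn. *ERBB2* did not pass in the early stage lines (-0.84, edgeR adjusted p = 0.00851). It passed 10 CPM in both controls and only 1 other line, and its late stage call was made also at 1 CPM, which all its lines passed (edgeR adjusted p = 0.00255). *ERBB3*, the most abundant receptor of the list, was between 13.5 and 30.3 CPM and was not called.

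Other ligands gave few calls. Of 33 other chemokines, 17 had 3 counts or fewer in every line, and only *CXCL11* was tested at 10 CPM. Of 14 other EGF family ligands and shedding genes, 4 were tested at 10 CPM, and 1 fell in the early stage lines, beside 10.1% of all genes tested: *ADAM17*, the protease that sheds amphiregulin and epiregulin (104 and 93.6 CPM in the controls, then 59.2, 53.5 and 64.6 CPM at 10, 15 and 25 nM, log2 difference -0.76, edgeR adjusted p = 0.00253, called in 3 of 8 fits). It was at 71.3 and 64.2 CPM in the late stage lines and did not pass there (adjusted p = 0.0156). *ADAM10*, the most abundant of the list, was at 169 and 142 CPM in the controls and 106 to 126 CPM in the DasR lines and was not called.

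The list of NF-kB subunits, regulators and targets, fixed with results of these data known, had 27 of 42 genes tested at 10 CPM. In the early stage lines 5 fell and none rose, beside 10.1% and 7.92% of all genes, and the median of the list was -0.064 on the log2 scale. *TNFAIP3*, an inhibitor of NF-kB that NF-kB itself induces, was at 77.6 and 79.9 CPM in the controls, then 10.1, 10.3 and 12.3 CPM at 10, 15 and 25 nM and 17.6 and 32.2 CPM in the late stage lines. Its groups did not overlap, and it fell in both stages (log2 difference -2.87, edgeR adjusted p = 0.000263, early, and -1.69, adjusted p = 0.00398, late), called in 8 and 3 of 8 fits. *CYLD*, a deubiquitinase that restrains NF-kB, fell likewise (-1.73, edgeR adjusted p = 0.000645, early, and -1.81, adjusted p = 0.0015, late), called in 6 and 4 of 8 fits. It passed 10 CPM only through the controls, where it was high, and was called in both stages also at 1 CPM, which all its lines passed (edgeR adjusted p = 0.000658 and 0.00174). The other falls in the early stage lines, named after their values were seen, were the subunit gene *NFKB2* (-1.62), the adhesion molecule *ICAM1* (-1.16) and the kinase *RIPK2* (-1.28), with edgeR adjusted p-values of 0.00203, 0.000459 and 0.00243. The subunit genes *NFKB1* and *RELA* were not called in either stage. The early stage count of 5 was 1 without the drug naive line and 3 without the DMSO, 15 nM or 25 nM line.

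In the late stage lines, 2 genes of the list fell, *CYLD* and *TNFAIP3*, and 1 rose, *CSF1*, a macrophage growth factor (log2 difference 1.36, edgeR adjusted p = 0.00297, called in 1 of 8 fits, and past 10 CPM only through the DasR lines), beside 4.56% and 3.42% of all genes. The late stage count of 3 was 0 without either control and 1 without any of the DasR lines. At 1 CPM, the filter used for the members, 37 genes of the list were tested. There 1 rose and 5 fell in the early stage lines, beside 6.32% and 7.95% of all genes, and 2 rose and 1 fell in the late stage lines, beside 2.5% and 3.02%. The gene added in both stages was *LIF*, which passed that filter only through the DasR lines, where it was high, and *TNFAIP3* was no longer called late (edgeR adjusted p = 0.00526). A pair of inducible targets that were near 0 in the controls, picked after their values were seen, were highest in the late stage lines. *LIF*, a cytokine gene, was at 0.0952 and 0.250 CPM in the controls, then 1.15, 1.72 and 1.84 CPM at 10, 15 and 25 nM and 5.47 and 4.17 CPM in the late stage lines. *PTGS2*, the inducible cyclooxygenase, was at 1 count or fewer in the controls and at 1.15 and 5.42 CPM in the late stage lines. *TAPBP*, the most abundant gene of the list, was between 118 and 178 CPM and was not called.

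**Figure D3:**
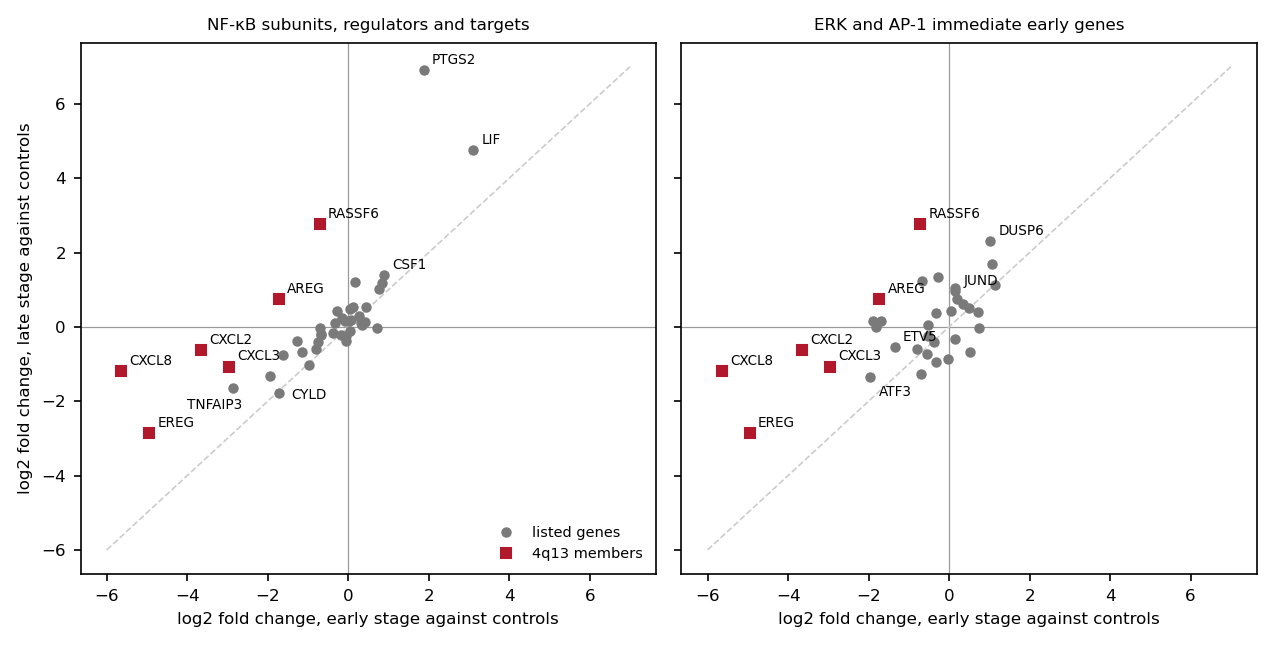
Fitted log2 differences of early stage (horizontal) and late stage (vertical) lines against controls for the NF-kB list (left) and the ERK and AP-1 list (right), grey points for listed genes past 1 CPM and red squares for the same 6 members in both panels, with a dashed line where both differences are equal. The members lie above the dashed line, from EREG at -4.95 and -2.85 to RASSF6 at -0.71 and 2.77, and most listed genes lie near the centre.

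Of 34 ERK and AP-1 immediate early genes, 21 were tested at 10 CPM, and 4 fell in the early stage lines and none rose, where 10.1% of all genes tested fell and 7.92% rose. *ATF3*, a stress-induced transcription factor, was at 55.7 and 58.6 CPM in the controls, then 11.8, 15.6 and 17.3 CPM at 10, 15 and 25 nM and 16.8 and 27.9 CPM in the late stage lines (early log2 difference -1.96, edgeR adjusted p = 0.000954, called in 6 of 8 fits). *SPRY4*, a feedback inhibitor of ERK signalling, was at 43.5 and 41.4 CPM in the controls, then 11.3, 7.0 and 16.6 CPM at 10, 15 and 25 nM and 41.3 and 52.9 CPM in the late stage lines (early log2 difference -1.89, edgeR adjusted p = 0.00319, called in 5 of 8 fits). For *SPRY4* the late stage lines spanned the control values. *ETV4* and *ETV5*, ERK-induced transcription factors named after their values were seen, fell by 1.70 and 1.36 in the early stage lines (edgeR adjusted p = 0.00132 and 0.000733). The count of 4 was 0 without either control, 3 without the 10 nM line, 4 without the 15 or 25 nM line and 6 without either late stage line. In the late stage lines, where 4.56% of all genes tested fell and 3.42% rose, 1 gene of the list rose, *JUND*, an AP-1 subunit (log2 difference 0.93, edgeR adjusted p = 0.00373, called in 1 of 8 fits). *EGR1*, the most abundant of the list, ran from 76.9 to 457 CPM, highest at 200 nM, and was not called.

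**Figure D4:**
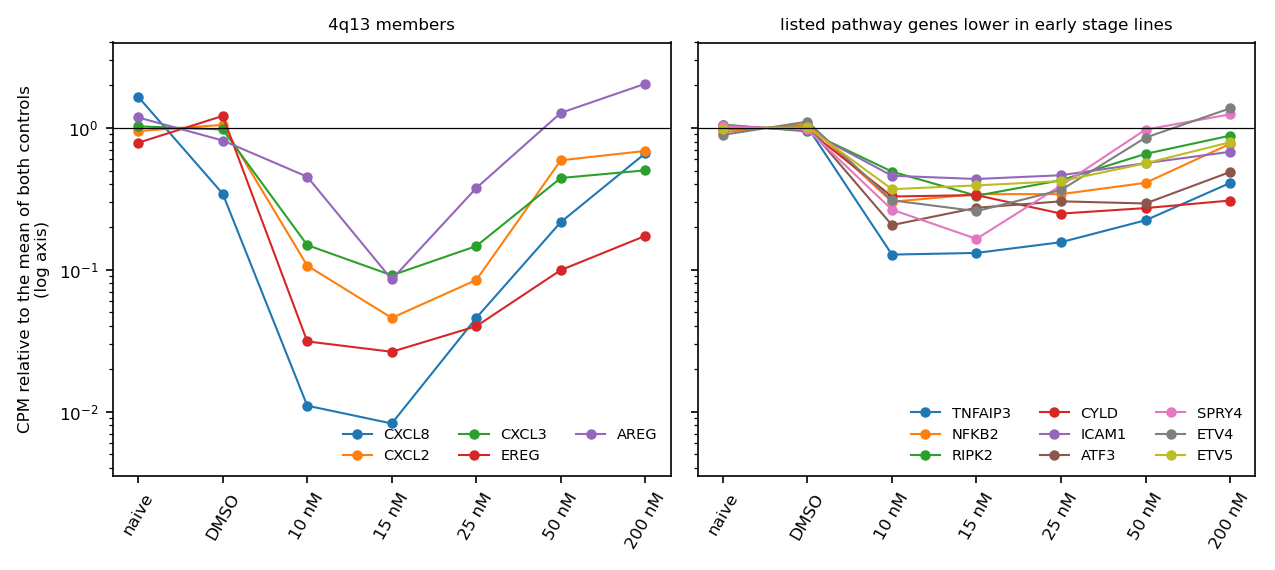
CPM of each gene divided by the mean of the 2 controls, log axis, in each of the 7 lines, for 5 members (left) and the 9 NF-kB or ERK and AP-1 genes called lower in the early stage lines (right); connecting lines only help the eye. The members shown drop to between 0.00824 (CXCL8) and 0.0913 (CXCL3) of the controls at 15 nM, and the listed genes to between 0.131 (TNFAIP3) and 0.436 (ICAM1) there. At 10 and 25 nM the 2 sets overlap, with AREG at 0.453 and 0.377 and TNFAIP3 at 0.128 and 0.156. RASSF6, not shown, is at 0.534 at 15 nM. The members were chosen on their early stage values, so that nothing is read from their deeper drop.

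*PF4* and *PPBP* are platelet genes. Of 26 listed platelet and megakaryocyte genes, 11 were tested at 10 CPM, and in the early stage lines 2 rose and 2 fell, beside 7.92% and 10.1% of all genes tested. In the late stage lines 1 rose and 1 fell, beside 3.42% and 4.56%. The platelet integrin gene *ITGA2B* fell (63.9 and 52.5 CPM in the controls, then 13.4, 5.96 and 13.2 CPM at 10, 15 and 25 nM, log2 difference -2.44, edgeR adjusted p = 0.00234), as did the transcription factor *GATA2* (-1.31, adjusted p = 0.00355), and they were called in 4 and 3 of 8 fits. At 50 and 200 nM, *ITGA2B* was at 56.8 and 99.2 CPM and *GATA2* at 137 and 211 CPM, and neither was called in the late stage lines. The matrix protein thrombospondin, *THBS1*, rose in both stages (log2 difference 4.60, edgeR adjusted p = 0.0026, early, and 4.70, adjusted p = 0.00444, late), and the tetraspanin *CD9* rose in the early stage lines (3.5, adjusted p = 0.00256), called in 4 and 3 of 8 fits for *THBS1* and in 3 for *CD9*. Both passed 10 CPM only through DasR lines, where they were high, and were called also at 1 CPM, which every line of *CD9* and all but the drug naive line of *THBS1* passed. *RUNX1* fell in the late stage lines (-0.77, edgeR adjusted p = 0.00297, called in 2 of 8 fits). *GATA1*, the most abundant of the list, was between 165 and 295 CPM and was not called.

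Among 17 relatives of *RASSF6* and Hippo kinases, 11 were tested at 10 CPM, and 1 fell in the early stage lines, where 10.1% of all genes tested did. *MOB1A*, which binds the LATS kinases, was that gene (100 and 94.5 CPM in the controls, then 50.8, 38.9 and 49.7 CPM at 10, 15 and 25 nM, log2 difference -1.09, edgeR adjusted p = 0.00119, called in 5 of 8 fits). No other gene of the list was called in either stage. *MOB1B*, the most abundant, was between 147 and 332 CPM, lowest at 200 nM.

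By the rule set for likeness, the profile of *EREG*, the member past 10 CPM, was compared over the 7 lines with every gene past 10 CPM outside the members and their listed neighbours. The 8 most alike were *EPB41L2*, *SHMT2*, *CHMP2A*, *FAM89A*, *SLC38A1*, *NFE2L2*, *THAP9-AS1* and *RCAN1*, with r from 0.996 to 0.999. Their sizes of change were smaller: *SLC38A1*, an amino acid transporter gene, was at 587 and 612 CPM in the controls, then 202, 179 and 217 CPM at 10, 15 and 25 nM and 290 and 333 CPM in the late stage lines. Against the mean profile of the 6 members past 1 CPM, a choice made after seeing the data, the most alike genes with a symbol were *ESRRB*, *ECE1*, *RAB8B*, *KIF13B*, *TTC7B*, *CAP1* and *CTTN* (r from 0.992 to 0.999). *ECE1*, which encodes the endothelin-converting enzyme, was at 134 and 112 CPM in the controls, then 31.8, 21.4 and 39.2 CPM at 10, 15 and 25 nM and 94.7 and 115 CPM in the late stage lines. The 2 profiles gave different genes, and each rests on 7 libraries that fall into 3 groups.

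Markers of K562 and of other cell types moved between the same lines. The 10 erythroid K562 markers were all detected in each of the 7 lines, the lowest value being 12.2 CPM, of *ALAS2* at 200 nM. Their summed level was 3848 and 3242 CPM in the controls, then 9741, 11095 and 8274 CPM at 10, 15 and 25 nM and 5679 and 4456 CPM in the late stage lines. *HBG2*, a fetal globin gene, was the most abundant in the controls and late stage lines, and the embryonic globin gene *HBZ* was at 15 nM. This sum was highest where the members were lowest. Of the 10 erythroid markers, 8 had every early stage line above both controls, 2 overlapped them and 0 lay below. The share of all genes past 1 CPM with every early stage line above both controls was 33.8%. All 10 were tested at 10 CPM. *HBG1* and *TFRC* were called higher in the early stage lines and 0 lower, beside 7.92% and 10.1% of all genes. In the late stage lines *TFRC* was called higher and 0 lower, beside 3.42% and 4.56%. The 8 lymphocyte markers summed to 200 and 214 CPM in the controls, then 20.1, 9.01 and 116 CPM at 10, 15 and 25 nM and 332 and 367 CPM in the late stage lines. Its most abundant gene in every line but that at 15 nM was *PTPRC*, the leukocyte phosphatase CD45, at 174 and 195 CPM, then 11.2, 0.898 and 103 CPM, then 305 and 333 CPM, while *CD2* and *MS4A1* had 3 counts or fewer in every line. Of the 6 others, 3 had every early stage line below both controls, 2 overlapped them and 1, *CD3E*, lay above, where 33.2% of all genes past 1 CPM had every early stage line below both controls and 33.8% had every one above. Only 4 of the 8 lymphocyte markers passed 1 CPM, so that these shares are not of genes at like levels. *CD3E*, a T cell receptor subunit gene, was at 0.143 and 0.208 CPM in the controls, then 1.19, 1.40 and 0.947 CPM at 10, 15 and 25 nM and 1.10 and 0.139 CPM in the late stage lines.

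The 8 monocyte markers summed to 137 and 115 CPM in the controls, then 135, 44.5 and 69.4 CPM at 10, 15 and 25 nM and 142 and 147 CPM in the late stage lines, mostly *LYZ* and *CD68*, with *CSF1R* at or under 0.432 CPM and *CD14* at or under 1.11 CPM. The directions within that list were mixed, with every early stage line below both controls for 3 genes (*CD68*, *ITGAM* and *FCGR1A*), above both for 3 (*CD14*, *S100A8* and *S100A9*) and overlapping them for *LYZ* and *CSF1R*, beside the same 33.2% below and 33.8% above of all genes past 1 CPM. *S100A8* and *S100A9* had 3 counts or fewer in both controls, so that nothing is read from their order. Only 4 of the 8 monocyte markers passed 1 CPM, so that the shares are not of genes at like levels. *CD68* was at 66.5 and 63.2 CPM in the controls and at 23.8, 15.3 and 23.5 CPM in the early stage lines, and *CD14* at 0.286 and 0.208 CPM, then 0.971, 1.11 and 0.947 CPM. The 6 endothelial markers summed to 4.17 to 39.2 CPM, mostly *VWF* and *PECAM1*, with *CDH5* and *KDR* at 3 counts or fewer. The 7 fibroblast markers summed to 6.11 to 19.8 CPM, with *COL1A2* highest at 14.3 CPM in the DMSO line and *FAP* at 3 counts or fewer. The 6 epithelial markers summed to 668 to 1064 CPM in all lines, led by *KRT8*, with *CDH1* at 3 counts or fewer. Of the 5 others, 2 had every early stage line above both controls, 2 below and 1 overlapped them, beside the same shares of all genes. At 10 CPM, *KRT19* and *MUC1* were called lower in the early stage lines and 0 were called higher, beside 10.1% and 7.92% of all genes. The part of these markers in the members' levels was not tested.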

How the data were processed

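Reads were aligned by the authors with STAR (hg19) and counted per gene with featureCounts, named in the submitters' processing notes, and the authors deposited raw counts for 25702 gene IDs of 7 libraries. Their versions and the handling of strand and of reads with several matches are not given in the sources used here. The authors also deposited gene lengths in bases, a unit of no sample, beside their own comparisons (fold changes, average levels, p and FDR), which were not used.

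Genes at 10 CPM in 2 libraries (10452) entered edgeR's quasi-likelihood test (edgeR 4.0.16, R 4.3.3) after TMM scaling, with 1 coefficient for each of the control (drug naive and DMSO), early stage (10, 15 and 25 nM) and late stage (50 and 200 nM) groups, all 7 libraries and an FDR of 0.005. Since 1 of 10 members passed that filter, the values of members came from a fit of the 14899 genes at 1 CPM in 2 libraries, chosen after seeing the data. Symbols were found for 23696 IDs and positions, from a GRCh37 annotation, for 22470. Lengths were unions of annotated exons. Intervals are 95% Poisson and, like the floor of 3 counts, cover counting error only. For correlations, 2 was the prior count of the log2 CPM. DESeq2 1.42.0 and limma 3.58.1 (voom) were alternatives, beside other scalings, filters, thresholds and leaving out each library. Lines of a group differed beyond sampling noise (chi-square per degree of freedom 14.5 to 45.1). The fits were tested on simulated data, the outcome is not given here and no result rests on it.

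Members and gene lists were chosen with earlier results of these data known. The genes named by rule were all members, the members' neighbours, 6 receptors and the 8 genes most alike. For each list they were also the 2 largest falls and rises among called genes and the most abundant gene. Others, among them *NFKB1*, *RELA* and single genes of the marker lists, were named with their values known, also where the text does not say so.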

Additional observations from a re-analysis of the deposited data

Results flagged for a closer look

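*AREG* stood apart because its early stage lines all lay below both controls and its late stage lines both lay above them. The mean of the late stage lines (11.9 CPM) was 5.45-fold that of the early stage lines (2.18 CPM), with the controls at 7.15 CPM. The difference between the stages was not tested, since the early stage lines were used to choose the gene. Nothing is read from the arrangement, whose early stage part that choice fixed. The late stage difference from the controls did not pass (log2 difference 0.74, SE 0.62, edgeR adjusted p = 0.403). With an identical copy of 97.3% of its 75-base exon stretches, the values of *AREG* depend on how reads with several matches were counted.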

How the results depend on the processing

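Of all genes, 1881 were called in the early stage lines, 834 in the late stage lines and 0 between the stages (3450 at an unadjusted p under 0.05 by edgeR). DESeq2 called 3548, 2503 and 1135, limma voom 1918, 788 and 0, and an FDR of 0.05 gave 4865, 3542 and 1328. Without a low count filter, 1287 were called in the late stage lines and 295 between the stages, and with only the libraries of the 2 groups 257 in the late stage lines. Leaving out 1 library at a time gave 208 to 2066 early, 33 to 596 late and 0 to 198 between the stages. The early count was lowest without the drug naive line and next without the DMSO line (529). The late count was 33 without the drug naive, 110 without the DMSO, 274 without the 25 nM, 263 without the 50 nM and 281 without the 200 nM line. Each of these fits has fewer samples, and the cause was not tested further.

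Of the members, 1 was called in the late stage lines. At an FDR of 0.05 there were 3 (*EREG*, *CXCL3* and *RASSF6*, of which the last entered the test only through the late stage lines, where it was high, so that nothing is read from its call), with only the libraries of the 2 groups 0 (*EREG* at an edgeR adjusted p of 0.00822), and with 1 library left out 0 to 1. The late stage log2 difference of *CXCL8* turned from -1.19 to 0.40 without the drug naive line and was -2.21 without the 200 nM line, and the cause was not tested. The direction of the early stage differences was fixed by the choice of members, and nothing is read from its staying the same. *EREG* ranged from -3.31 to -2.51 in the late stage lines. With at most 14 counts of *CXCL1* in a line, and 0 of *CXCL6*, the depth limits what can be said of these genes. No paired analysis was possible because the labels give no replicate numbers and each line is 1 library.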
